A study of Homo sapiens with 6 samples.

Results

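ID1, ID2, ID3 and ID4 and the genes of bone morphogenetic protein (BMP) signalling around them were followed in the human liver cancer line Huh7, in which the E3 ubiquitin ligase gene TRIM15 had been knocked down. The members were the 10 rows of a deposited gene table of 58735 rows whose gene name was ID1, ID2, ID3, ID4, SMAD1, SMAD5, SMAD6, SMAD7, BMPR2 or BAMBI, and each name matched 1 row. RNA sequencing covered 3 libraries of cells with a short hairpin RNA against TRIM15 (shTRIM15) and 3 libraries of cells with a control hairpin (shcontrol), all grown in RPMI-1640 with fetal bovine serum. The labels do not say how many hairpins were used or whether replicates were separate cultures, so p-values measure only the spread between these libraries, which may be technical. Protein amounts and SMAD phosphorylation were not measured.

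BMPs are secreted ligands that bring together type I and type II receptors at the cell surface. The type I receptor then phosphorylates the receptor SMADs SMAD1, SMAD5 and SMAD9, which join the common partner SMAD4 and enter the nucleus. ID genes are direct targets there, and their proteins lack a DNA-binding region and hold E proteins away from DNA. SMAD6 and SMAD7, the inhibitory SMADs, are induced by the same signal and dampen it. In liver cells the pathway is best known for control of the iron hormone hepcidin (HAMP).

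The ID genes moved in different directions in shTRIM15 cells, while the receptor and SMAD genes that passed the threshold were lower. ID3 and ID4 rose to 120% and 132% of control, ID2 fell to 88.3%, and ID1, by far the most abundant of them, was at 96.0% and did not pass the threshold. SMAD5, SMAD6 and BMPR2 fell to 85.7%, 76.9% and 79.2% of control, and SMAD7 and BAMBI did not pass. Of the 10 members, 9 were tested and 6 passed, 2 of them higher and 4 lower. Among all 14847 genes tested, 19.0% passed, 8.93% as higher and 10.1% as lower in shTRIM15. In deposited FPKM the groups did not overlap in 8 of the 9 tested members, against 37.8% of all tested genes. Since the members were chosen with results of these data known, these shares describe the members and are no test. These are bulk libraries, in which a change in the share of cells that express a gene and a change in RNA per cell cannot be told apart.

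**Figure D1:**
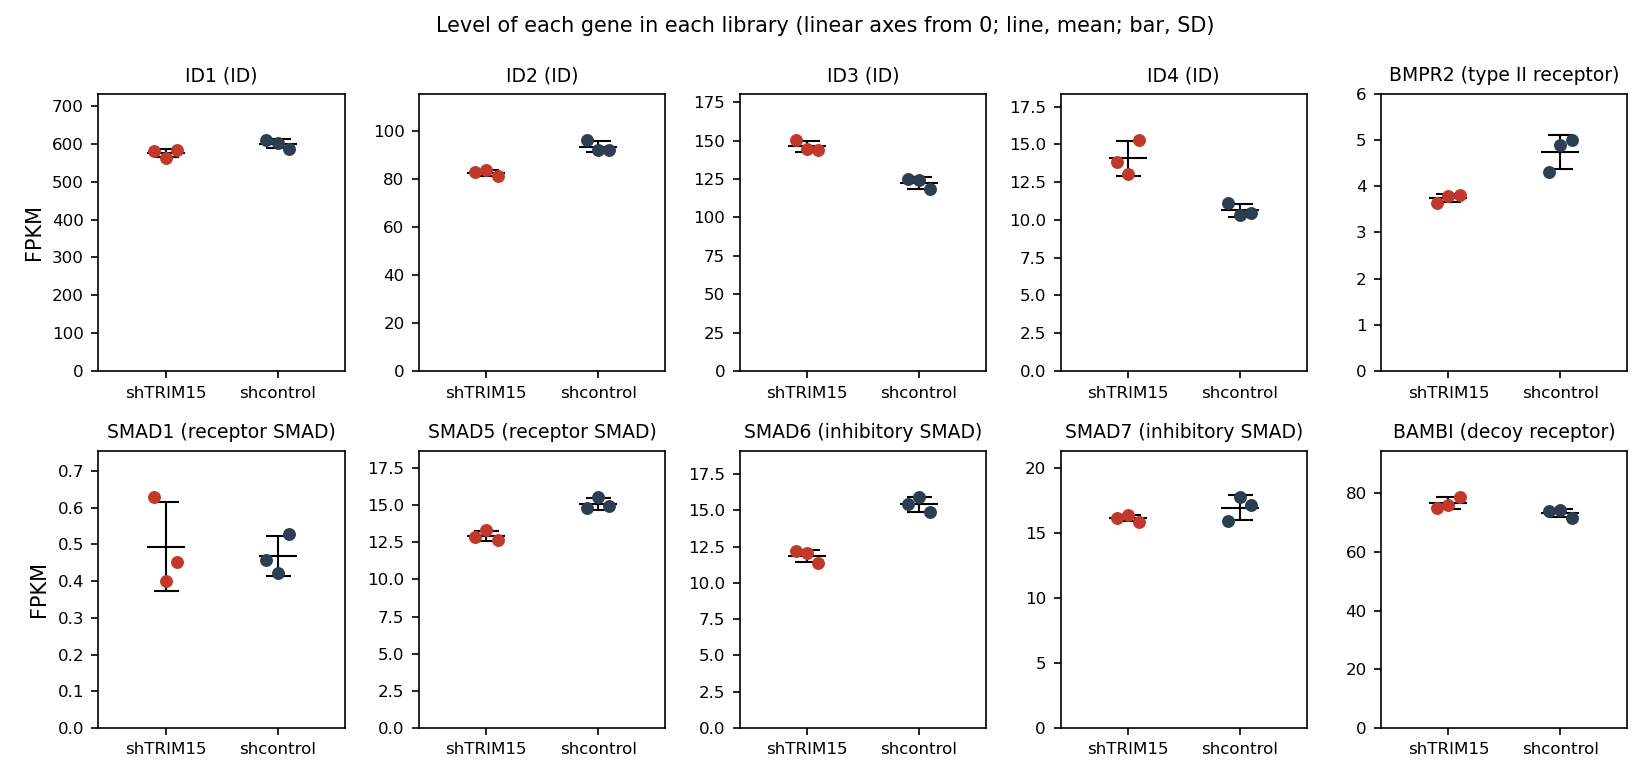
Level of each of the 10 members in FPKM on linear axes that start at 0, with 1 point per library, the mean as a line and the SD as a bar (3 shTRIM15 libraries left, 3 shcontrol libraries right). ID3 and ID4 lie higher and ID2, SMAD5, SMAD6 and BMPR2 lower in all shTRIM15 libraries, while SMAD1 and SMAD7 overlap.

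Levels are FPKM as the authors deposited them, which divide a gene's reads by its length and by the depth of the library. Fold changes are differences on the log2(FPKM + 1) scale, shTRIM15 minus shcontrol, from limma. P-values were adjusted by Benjamini-Hochberg over the tested genes, those at 0.5 FPKM or above in 3 or more libraries, and the threshold is an adjusted p under 0.05. This scale understates the change of genes near 1 FPKM. Depth was 17332508 to 19556855 reads in shTRIM15 libraries and 17715210 to 18217903 in shcontrol libraries. TRIM15 was at 3.23, 2.11 and 2.51 FPKM in shTRIM15 libraries, against 5.17, 5.09 and 4.88 FPKM in shcontrol libraries, or 51.8% of control (log2 fold change -0.75, adjusted p = 0.00416). All 8 hepatoma markers were expressed and 0 of them passed by limma. At an unadjusted p under 0.05 there were 4, against 4857 of all 14847 genes tested. Limma voom on whole reads recovered from the FPKM called 3, each of those 3 higher, against 4182 of all genes tested. Albumin (ALB) averaged 928 ± 10.3 FPKM in shTRIM15 and 899 ± 10.2 FPKM in shcontrol cells (SD, n = 3 each). Endothelial cells also carry high ID levels in the body. All 7 endothelial markers were below 0.5 FPKM in every library, with summed levels of 0.292 to 0.443 FPKM in shTRIM15 and 0.363 to 0.481 FPKM in shcontrol libraries, and CDH5 was listed at 0.

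Promoter windows were read because inhibitory SMADs and BAMBI are themselves targets of SMADs. Each RefSeq window (GRCh38.p14) ran from 250 bases before to 50 bases after a transcript start. The palindromic SMAD-binding letters GTCTAGAC and the GC-rich letters GGCGCC, each its own reverse complement so that 1 search covers both strands, were searched. The palindrome was in 71 of 35116 windows (0.202%) and the GC-rich letters in 19.2%. Among the members, the palindrome was in the window of SMAD6 alone and began 12 bases before the transcript start. GGCGCC was in the windows of BMPR2 (1 match, 147 bases before the start), BAMBI (3 matches), SMAD5 (1 match) and in 2 of the 5 windows of SMAD1. The windows of ID1, ID2, ID3, ID4 and SMAD7 held neither. Sequence outside the windows was not searched, so this does not show that a gene lacks such elements. A stretch of 30 bases around a match is shown for SMAD6, BMPR2 and BAMBI on the plus strand, with the searched letters in capitals.
SMAD6, chr15:66702213-66702242: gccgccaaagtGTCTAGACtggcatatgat
BMPR2, chr2:202376168-202376197: catcccgccgccGGCGCCgccgccgccgcc
BAMBI, chr10:28677313-28677342: gcgccccagccgGGCGCCccagacgccggc
These matches are letters in a window. They are not shown to be bound.

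BMP2 was the most abundant BMP ligand and rose slightly. BMP2, a secreted ligand, averaged 74.8 ± 2.05 FPKM in shTRIM15 and 68.3 ± 0.425 FPKM in shcontrol cells (SD, n = 3 each), a log2 fold change of 0.13 (SE 0.0242, limma adjusted p = 0.0119). Without a variance trend in the model its adjusted p was 0.056. BMP4, a close relative of BMP2, was at 34.5 ± 0.325 FPKM in shTRIM15 and 33.4 ± 1.30 FPKM in shcontrol cells and did not pass. Of the 14 ligand genes listed, 5 were tested. Limma called 1 higher and 0 lower, where 8.93% of all genes tested were higher and 10.1% lower. There were 0 lower also at an unadjusted p under 0.05 and by voom. The median log2 fold change of the tested ligands was 0.045, and 5 of the 14 were listed at 0 in all libraries. BMP6, a main ligand of iron control in liver, was at 0.608 ± 0.0351 FPKM in shTRIM15 and 0.607 ± 0.060 FPKM in shcontrol cells.

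BMPR2 (ENSG00000204217, chromosome 2, 202376936 to 202567751, plus strand, GRCh38) encodes a type II receptor that activates type I receptors for BMPs. It had 3.65, 3.78 and 3.82 FPKM in shTRIM15 libraries, against 4.31, 4.89 and 5.01 FPKM in shcontrol libraries. Every shTRIM15 library was below every shcontrol library. BMPR2 fell by 0.27 on the log2 scale (SE 0.0569; limma adjusted p = 0.0185). The call was lost without any 1 library except shcontrol replicate 1 (adjusted p 0.0515 to 0.0633) and with no filter on low values (0.0526). Of the 11 receptors and coreceptors listed, 6 were tested and BMPR2 was the 1 called (16.7%), against 19.0% of all genes tested. The other 5 had log2 fold changes of -0.092 to -0.033. They included the type I receptor genes ACVR1 (7.65 ± 0.502 FPKM in shTRIM15, 7.84 ± 0.509 FPKM in shcontrol) and BMPR1A (3.13 ± 0.0815 FPKM in shTRIM15, 3.29 ± 0.085 FPKM in shcontrol; SD, n = 3 each).

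SMAD5 was the main receptor SMAD transcript, and it fell. SMAD5 (ENSG00000113658, chromosome 5, 136132845 to 136188747, plus strand) had 12.8, 13.3 and 12.7 FPKM in shTRIM15 libraries, against 14.8, 15.6 and 14.9 FPKM in shcontrol libraries. The groups did not overlap, and SMAD5 fell by 0.21 on the log2 scale (SE 0.0331; limma adjusted p = 0.0066). SMAD1 (ENSG00000170365, chromosome 4, 145481194 to 145558079, plus strand), which carries the same signal, was low, near the filter of 0.5 FPKM. It had 0.630, 0.401 and 0.451 FPKM in shTRIM15 libraries, against 0.457, 0.421 and 0.527 FPKM in shcontrol libraries, and was not tested because only 2 libraries reached 0.5 FPKM. The groups overlapped, and its reads were 72, 48 and 48 in shTRIM15, against 50, 45 and 58 in shcontrol. The exact Poisson 95% interval of the highest count, 56.3 to 90.7, met that of the lowest, 32.8 to 60.2. Such intervals cover counting error only. SMAD9, the third receptor SMAD, was at 0.818 ± 0.0301 FPKM in shTRIM15 and 0.902 ± 0.202 FPKM in shcontrol cells (SD, n = 3 each) and did not pass.

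SMAD4, the common partner of receptor SMADs in BMP and TGF-beta signalling, fell as well. It averaged 3.52 ± 0.218 FPKM in shTRIM15 and 4.71 ± 0.139 FPKM in shcontrol cells (SD, n = 3 each; log2 fold change -0.34, limma adjusted p = 0.00537). Of the 4 SMADs that carry the BMP signal, 3 were tested. Limma called 2 lower and 0 higher, where 10.1% of all genes tested were lower and 8.93% higher. There were also 0 higher at an unadjusted p under 0.05 and by voom. With only 3 genes, chosen with results known, these counts are a description.

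The inhibitory SMADs differed from each other. SMAD6 (ENSG00000137834, chromosome 15, 66702228 to 66782848, plus strand), which acts mainly against BMP signalling, had 12.2, 12.0 and 11.3 FPKM in shTRIM15 libraries, against 15.4, 15.9 and 14.9 FPKM in shcontrol libraries. All shTRIM15 libraries were below all shcontrol libraries, with a log2 fold change of -0.35 (SE 0.0390, adjusted p = 0.00165 by limma). SMAD7 (ENSG00000101665, chromosome 18, 48919853 to 48952052, minus strand), which acts on BMP and TGF-beta signalling, had 16.2, 16.4 and 15.9 FPKM in shTRIM15 libraries, against 15.9, 17.8 and 17.2 FPKM in shcontrol libraries. The groups overlapped, and the log2 fold change of -0.066 had a 95% interval of -0.17 to 0.035 (adjusted p = 0.343 by limma). The ratio of SMAD7 to SMAD6 in FPKM was 1.33, 1.36 and 1.40 in shTRIM15 libraries, against 1.03, 1.12 and 1.16 in shcontrol libraries. This pair was chosen after its values were seen, so the ratio is a description.

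BAMBI (ENSG00000095739, chromosome 10, 28677342 to 28682939, plus strand) encodes a decoy receptor without a kinase domain. It had 74.9, 76.1 and 78.8 FPKM in shTRIM15 libraries, against 73.8, 74.4 and 71.7 FPKM in shcontrol libraries. The groups did not overlap, but the difference was small and did not pass, with a log2 fold change of 0.063 (95% interval 0.00125 to 0.13, adjusted p = 0.145 by limma). With limma voom on whole reads it passed (log2 fold change 0.085, adjusted p = 0.0371). The ubiquitin ligases SMURF1 and SMURF2, which mark receptor SMADs and receptors for degradation, had log2 fold changes of 0.10 and -0.096 and did not pass (limma adjusted p = 0.0908 and 0.338). SMURF1 passed with voom on whole reads (log2 fold change 0.13, adjusted p = 0.0122).

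**Figure D2:**
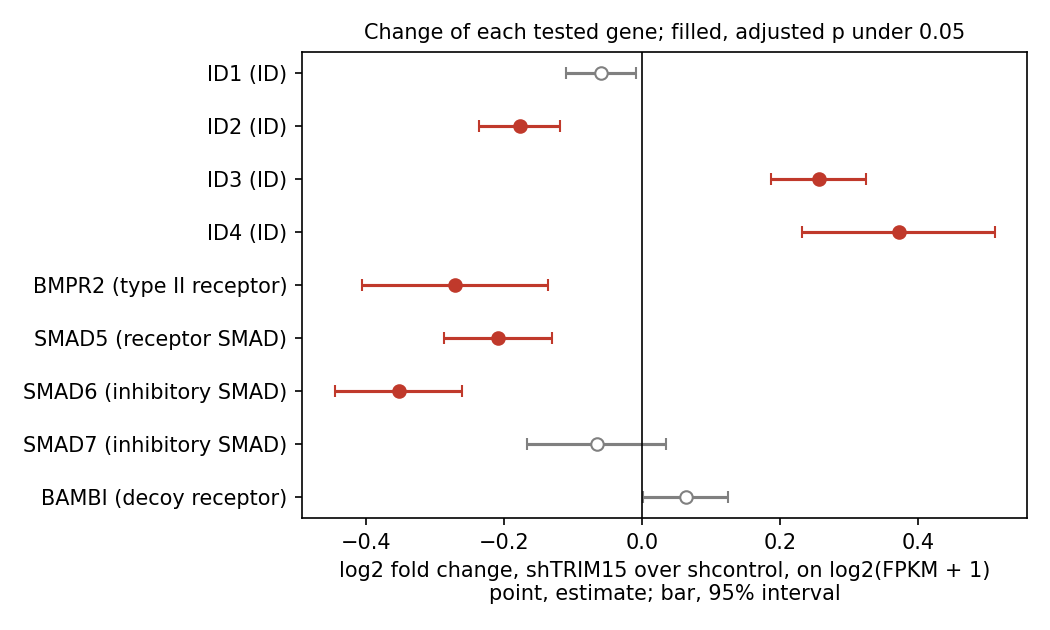
Log2 fold change of the 9 tested members, shTRIM15 over shcontrol on the log2(FPKM + 1) scale, with the 95% interval from limma as a bar. Filled points passed an adjusted p of 0.05: ID3 and ID4 lie right of 0, ID2, BMPR2, SMAD5 and SMAD6 left of it, from -0.35 for SMAD6 to 0.37 for ID4.

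ID1 made up most of the ID transcripts. ID1 (ENSG00000125968, chromosome 20, 31605283 to 31606515, plus strand), the ID gene most widely used as a readout of BMP signalling, ranked 34 of 14847 tested genes by mean FPKM. It had 581, 564 and 584 FPKM in shTRIM15 libraries, against 611, 602 and 588 FPKM in shcontrol libraries. In deposited FPKM every shTRIM15 library was below every shcontrol library, but by little. The log2 fold change was -0.059 (95% interval -0.11 to -0.0080, adjusted p = 0.106 by limma), so the difference did not pass after adjustment. Library sizes implied by the deposited FPKM differed from summed reads by 1.04% to 1.27% in shTRIM15 libraries. In shcontrol libraries they differed by -0.370% to -0.359%. With FPKM rescaled to summed reads, the log2 fold change of ID1 was -0.038 (limma adjusted p = 0.285). The separation of the groups is therefore stated for the deposited scaling only.

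ID2 (ENSG00000115738, chromosome 2, 8678845 to 8684453, plus strand), whose protein also binds the retinoblastoma protein, had 83.0, 83.6 and 81.2 FPKM in shTRIM15 libraries, against 96.4, 92.1 and 92.1 FPKM in shcontrol libraries. The groups did not overlap, and ID2 fell (log2 fold change -0.18, SE 0.0249, adjusted p = 0.00415 by limma). The antisense gene ID2-AS1 overlaps it on the opposite strand and averaged 1.17 FPKM over the 6 libraries. The sources used here do not say whether reads were counted by strand.

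ID3 (ENSG00000117318, chromosome 1, 23557918 to 23559794, minus strand), which responds to BMP and to mitogens, moved the other way. It had 151, 145 and 144 FPKM in shTRIM15 libraries, against 125, 124 and 118 FPKM in shcontrol libraries. All shTRIM15 libraries were above all shcontrol libraries (log2 fold change 0.26, SE 0.0291, adjusted p = 0.0018 by limma).

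ID4 (ENSG00000172201, chromosome 6, 19837386 to 19840684, plus strand), the least abundant of the family, had the largest rise among the members. It had 13.9, 13.1 and 15.3 FPKM in shTRIM15 libraries, against 11.1, 10.3 and 10.4 FPKM in shcontrol libraries. The groups did not overlap (log2 fold change 0.37, SE 0.0587, adjusted p = 0.00649 by limma). Among all tested genes, 5.06% had a larger absolute log2 fold change on this scale, which understates the change of genes near 1 FPKM. Reads were 613, 605 and 630 in shTRIM15 and 472, 428 and 444 in shcontrol libraries.

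The family's summed level differed by less than the SD of either group, while the shares of its members differed by more. ID1 to ID4 together had 819 ± 12.3 FPKM in shTRIM15 and 827 ± 17.7 FPKM in shcontrol cells (SD, n = 3 each). The share of ID1 in this sum was 70.3% ± 0.441 in shTRIM15 and 72.6% ± 0.151 in shcontrol cells. The share of ID2 was 10.1% ± 0.270 in shTRIM15 and 11.3% ± 0.167 in shcontrol cells. The share of ID3 was larger in shTRIM15 cells, at 17.9% ± 0.368, against 14.8% ± 0.183 in shcontrol cells. ID4 supplied 1.72% ± 0.124 of the sum in shTRIM15 and 1.29% ± 0.0355 in shcontrol cells. The ratio of ID3 to ID2 in FPKM was 1.81, 1.73 and 1.77 in shTRIM15 libraries, against 1.30, 1.35 and 1.28 in shcontrol libraries, a pair chosen after its values were seen.

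The ratio of the summed ID level to the SMAD sums was higher in shTRIM15 cells. Their SMAD sums were lower, while the ID sum itself was not higher (819 FPKM in shTRIM15, 827 FPKM in shcontrol). ID1 to ID4 over the receptor SMADs SMAD1 and SMAD5 was 61.5, 58.7 and 62.8 in shTRIM15 libraries, against 55.4, 51.8 and 52.3 in shcontrol libraries. Over the inhibitory SMADs SMAD6 and SMAD7 it was 29.2, 28.3 and 30.3 in shTRIM15 libraries, against 26.9, 24.6 and 25.2 in shcontrol libraries. Neither ratio overlapped between groups. The sum of SMAD1 and SMAD5 was 13.4 ± 0.296 FPKM in shTRIM15 and 15.6 ± 0.386 FPKM in shcontrol cells, and that of SMAD6 and SMAD7 was 28.0 ± 0.668 FPKM in shTRIM15 and 32.4 ± 1.24 FPKM in shcontrol cells (SD, n = 3 each). These ratios are given as a description, with no test.

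**Figure D3:**
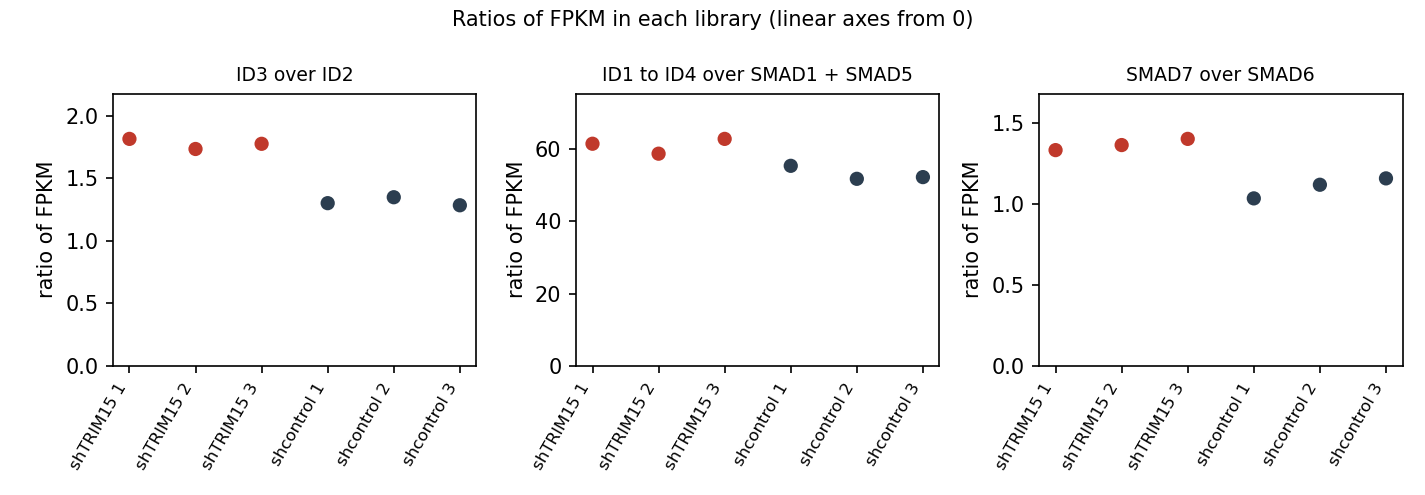
Ratios of FPKM in each of the 6 libraries on linear axes that start at 0 (3 shTRIM15 libraries left, 3 shcontrol libraries right): ID3 over ID2, summed ID1 to ID4 over SMAD1 plus SMAD5, and SMAD7 over SMAD6. In each panel all shTRIM15 libraries lie above all shcontrol libraries, for ID3 over ID2 at 1.73 to 1.81 against 1.28 to 1.35.

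Among extracellular BMP antagonists, FSTL3 and TWSG1 fell and SOSTDC1 rose. Of 15 listed, 8 were tested, 1 was higher and 2 lower, where 8.93% of all genes tested were higher and 10.1% lower. At an unadjusted p under 0.05, 1 was higher and 4 lower, and voom on whole reads called 0 higher and 3 lower. Over all 14847 genes tested, 4857 were at an unadjusted p under 0.05, and voom called 2360 higher and 1822 lower. The median log2 fold change of the 8 was -0.21, against 0.00143 over all genes tested. FSTL3, a secreted binder of activin and related ligands, fell to 16.9 ± 0.428 FPKM in shTRIM15, against 21.8 ± 0.342 FPKM in shcontrol cells (SD, n = 3 each; log2 fold change -0.35, limma adjusted p = 0.000573). TWSG1, which binds BMPs together with chordin, fell to 3.74 ± 0.160 FPKM in shTRIM15, against 4.77 ± 0.313 FPKM in shcontrol cells (-0.28, limma adjusted p = 0.0135), a call lost with replicate number as a block (adjusted p = 0.0525). SOSTDC1, an antagonist of BMP and WNT, rose to 2.40 ± 0.072 FPKM in shTRIM15, against 1.98 ± 0.0782 FPKM in shcontrol cells (0.19, limma adjusted p = 0.0457), a call lost without any 1 of the 6 libraries (adjusted p 0.0691 to 0.134). NOG and SOST were listed at 0 in all libraries.

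Other known BMP targets were mostly too low to test. Of 8 listed, 2 were tested and 0 passed by limma, at an unadjusted p under 0.05 or by voom. HES1, a transcriptional repressor, was at 21.5 ± 0.540 FPKM in shTRIM15 and 20.4 ± 1.51 FPKM in shcontrol cells (SD, n = 3 each). ATOH8, a liver transcription factor induced by BMP, had a log2 fold change of 0.0085 (limma adjusted p = 0.953). HAMP was at 0.235 ± 0.103 FPKM in shTRIM15 and 0.284 ± 0.0413 FPKM in shcontrol cells and was not tested.

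Among the E proteins, the partners that ID proteins sequester, TCF3 rose. TCF3 averaged 33.3 ± 0.758 FPKM in shTRIM15 and 25.2 ± 0.812 FPKM in shcontrol cells (SD, n = 3 each; log2 fold change 0.39, SE 0.0315, limma adjusted p = 0.000565). TCF12 was at 6.91 ± 0.189 FPKM in shTRIM15 and 6.98 ± 0.185 FPKM in shcontrol cells, and TCF4 at 1.08 ± 0.0271 FPKM in shTRIM15 and 1.29 ± 0.0324 FPKM in shcontrol cells. Neither passed (limma adjusted p = 0.864 and 0.18). The groups did not overlap for TCF4, and with limma voom on whole reads it passed as lower (log2 fold change -0.24, adjusted p = 0.00196).

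The TGF-beta and activin arm, which shares SMAD4, SMAD7 and BAMBI with BMP signalling, had 3 of 17 tested genes called (17.6%), against 19.0% of all genes tested. Of the 17, 2 were higher, 1 was lower and 14 did not pass, and their median log2 fold change was -0.026. Voom on whole reads called 3 higher and 1 lower, and 2360 higher and 1822 lower of all 14847 genes tested. TGFBI passed as higher by voom only (log2 fold change 0.080, voom adjusted p = 0.00177). TGFBR2, the type II receptor for TGF-beta, fell to 29.0 ± 0.240 FPKM in shTRIM15, against 38.7 ± 1.22 FPKM in shcontrol cells (SD, n = 3 each; log2 fold change -0.40, limma adjusted p = 0.000311). CCN2, a matricellular growth factor gene induced by TGF-beta and YAP, rose to 124 ± 2.27 FPKM in shTRIM15, against 90.0 ± 1.93 FPKM in shcontrol cells (0.46, limma adjusted p = 0.000164). SKI, a repressor of SMAD complexes, rose as well (0.22, limma adjusted p = 0.0101).

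**Figure D4:**
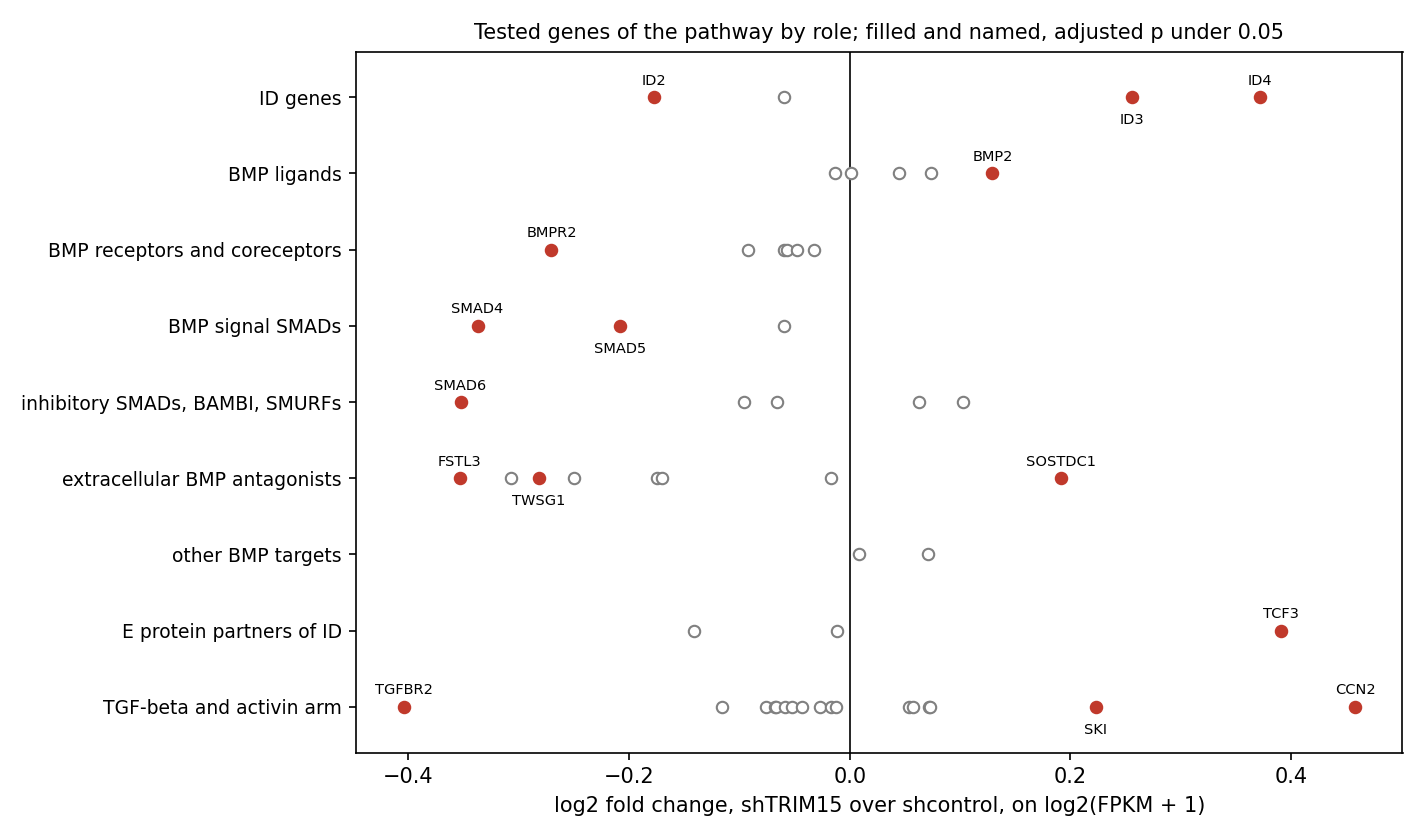
Log2 fold change, shTRIM15 over shcontrol on the log2(FPKM + 1) scale, of every tested gene in 9 lists ordered by role, with 1 point per gene. Filled and named points passed an adjusted p of 0.05 by limma; BMPR2, SMAD4, SMAD5 and SMAD6 lie left of 0, and ID3, ID4, BMP2 and TCF3 right of it.

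Of the 4 members that fell, 3 had a long deposited gene length. This is the length that FPKM divide by, and it is shorter than the span of the coordinates given above. It was 8563, 9040 and 11900 bases for SMAD6, SMAD5 and BMPR2. These genes lie in the longest of 4 equal bins of tested genes (6762 to 118976 bases). In that bin 7.95% of genes were higher and 13.6% lower. ID3 (1797 bases) was in the shortest bin, where 4.87% were higher and 4.25% lower, and ID2 (2205 bases) and ID4 (2344 bases) were in the next, where 11.6% were higher and 9.03% lower. The part of length in the members' changes was not tested.

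Across the 6 libraries, the protein-coding genes most like ID3 in pattern were SETD1A, ACTR1B and ZDHHC7, each with Pearson's r of 0.998 on log2(FPKM + 1), and 482 of 11651 genes had an r above 0.95. For ID2 they were GSN, DSN1 and SAP30L (0.995 to 0.999, with 337 genes above 0.95), and for ID1 B4GAT1, PTPRU and EOGT (0.985 to 0.997, with 35 genes above 0.95). These values describe 6 libraries in 2 groups.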

How the data were processed

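RNA of 6 Huh7 libraries (3 shTRIM15, 3 shcontrol) was selected for mRNA, and a kit that keeps strand was used, per the labels' protocols. The authors deposited FPKM values per gene, scaled to gene length and library size. The aligner and counting step are not given in the sources used here. The submitters' processing notes list a mouse build, but all 58735 gene IDs match GENCODE 29 on GRCh38 in start, end and strand, so coordinates are on GRCh38. In each library, 100% of values above 0, multiplied by gene length, were whole multiples of a fixed step (tolerance 0.01), which gave whole reads.

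The comparison used limma 3.58.1 in R 4.3.3 with a mean-variance trend on log2(FPKM + 1), two-sided, for genes at 0.5 FPKM or above in 3 or more libraries. P-values were adjusted by Benjamini-Hochberg over those genes. It was tested on simulated data. With 3 against 3 libraries an exact permutation test allows no p below 0.1. Named genes were the members, up to 6 called genes per list (or its most abundant gene) and the 3 genes most like ID1, ID2 and ID3. Others were named for their role after their values were seen. The members and lists were chosen with earlier results of these data known.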

Additional observations from a re-analysis of the deposited data

How the results depend on the processing

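ID2, ID3, ID4, SMAD5 and SMAD6 kept their direction and their call under all 14 alternatives, and ID1 and SMAD7 kept theirs without a call. For BMPR2 (log2 fold change -0.27) the call was lost with no filter on low values (-0.27, adjusted p = 0.0526) and without 5 of the 6 single libraries (-0.32 to -0.24 without any 1 library). BAMBI passed with voom on whole reads (0.085). The number of tested genes called, 2824 (1326 higher, 1498 lower), was 1771 to 2345 without any 1 library (790 to 1128 higher, 981 to 1217 lower), and voom called 4182 (2360 higher). Rescaling FPKM to summed reads, chosen like voom after seeing the data, called 1673 higher and 1258 lower. No filter called 1888 genes (884 higher, 1004 lower). With replicate number as a block, 1913 genes were called (883 higher), and the same 6 members. Same-numbered libraries correlated at 0.00862 to 0.0133 in their deviations from the group means, each best with its own number. Other pairs were at -0.014 to 0.0018. All these values were close to 0, so they do not settle whether the numbers are pairs. The numbers were not taken as pairs. Under the block TWSG1 (adjusted p = 0.0525) and SOSTDC1 (0.0978) were no longer called. Called genes in the pathway lists, from the ID genes to the TGF-beta and activin arm, numbered 15, and 13 to 19 under the alternatives. The 15 include the 6 called members, so they are not a separate count. Since the lists were chosen with earlier results known, the count is a description and no test against all genes. The ratios of summed ID to SMAD levels, shTRIM15 over shcontrol, stayed between 1.12 and 1.18. The planned count-model tests and TMM scaling were not run. The cause of these differences was not tested. Depth limits SMAD1, which had 45 to 72 reads per library.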

Other observations

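Among markers of other cell types, LUM, a collagen-binding proteoglycan gene, was expressed in this line and fell to 50.7 ± 1.25 FPKM in shTRIM15, against 57.6 ± 1.95 FPKM in shcontrol cells (SD, n = 3 each; log2 fold change -0.18, limma adjusted p = 0.00931). COL1A2, a collagen chain gene, was at 4.66 ± 0.250 FPKM in shTRIM15 and 5.39 ± 0.066 FPKM in shcontrol cells (-0.18, limma adjusted p = 0.0365), a call lost without any 1 library (adjusted p 0.0643 to 0.0975). COL3A1 was below the filter and not tested, at 0.300 ± 0.0104 FPKM in shTRIM15 and 0.194 ± 0.0342 FPKM in shcontrol cells, and its groups did not overlap. COL1A1 did not pass, at 0.920 ± 0.137 FPKM in shTRIM15 and 0.907 ± 0.00839 FPKM in shcontrol cells (limma adjusted p = 0.965). The 7 fibroblast and stellate markers summed to 55.6 to 57.8 FPKM in shTRIM15 and 62.5 to 66.2 FPKM in shcontrol libraries, and LUM made up most of each sum. Of 6 immune markers, 2 were tested and 0 passed by limma, at an unadjusted p under 0.05 or by voom: CD14, a coreceptor for bacterial lipopolysaccharide that liver cells also make, was at 13.7 ± 0.383 FPKM in shTRIM15 and 14.0 ± 0.585 FPKM in shcontrol cells, and LYZ at 3.50 ± 0.404 FPKM in shTRIM15 and 3.14 ± 0.315 FPKM in shcontrol cells. PMEPA1, a gene that TGF-beta induces in many cell types, was listed at 0 in all 6 libraries.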
